A study of Mus musculus with 2 samples.

Results

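Smooth muscle contracts through thin filaments of smooth muscle actin and thick filaments of smooth muscle myosin, which are set to work when a kinase phosphorylates the myosin light chain. Calponin, transgelin and leiomodin bind or build the actin filaments, desmin and synaptopodin-2 tie the filaments to the rest of the cytoskeleton, and myocardin, a partner of serum response factor at promoter motifs called CArG boxes, is known for turning many of these genes on together. In the testis these genes are known from the peritubular myoid cells around the cords or tubules and from the tunica albuginea, the testis capsule. They are also known from the muscle and pericytes of blood vessels. The 10 genes described here were chosen by symbol, as the rows *Acta2*, *Myh11*, *Mylk*, *Tagln*, *Cnn1*, *Actg2*, *Des*, *Myocd*, *Lmod1* and *Synpo2* of the 32285 genes counted, and 10 of 10 were found.

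The material was whole testes of mouse embryos at E14.5 that carried an *Nr5a1-cre* transgene and a *Rosa-tdTomato* reporter, without a group of another genotype, age or treatment. 10x multiome reads RNA and open chromatin (ATAC) from 1 nucleus, and each assay had 1 library, so classes of nuclei were compared and no test between animals was possible. How many embryos went into the pool was not stated in the labels or methods used here. The paper found NR5A1 protein in fetal Leydig and Sertoli cells and, at an earlier stage, in most somatic cells of the testis before it differentiates. In which nuclei the Cre had acted was not tested. All intervals are exact 95% intervals and cover counting error only.

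After quality filters and removal of 470 likely doublets, 7197 of 9833 barcodes were kept, with 76670523 RNA molecules (UMIs, median 7949 per nucleus) and a median of 4477 fragments at peaks. Clusters of RNA and chromatin together were named from marker genes, after the 10 genes, 35 other contractile genes and the peaks near them had been left out of the clustering. The interstitial-like class held 3269 nuclei (45.4%), the pericyte-like class 66, the mesonephric mesenchyme-like class 395, the surface epithelium-like class 560, the Leydig-like class 800, the Sertoli-like class 845 and the germ-like class 965. The other 4 classes held 43 to 101 nuclei each. In the pericyte-like class 7 of 7 pericyte markers stood at least 2 times above the interstitial-like class, with a summed level of 2319 against 64.1 CPM (UMIs of the gene per 1000000 UMIs). Its endothelial markers also summed to 179 against 39.0 CPM and its Leydig markers to 702 against 362 CPM, the latter falling to 325 CPM in the 58 of its 66 nuclei under the automatic doublet threshold. The part of these other markers in the pericyte-like levels was not tested.

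The 10 genes gave 17951 UMIs over all kept nuclei. *Mylk* was met most often, with 8879 UMIs in 3404 nuclei, and *Cnn1* least often, with 36 UMIs in 30 nuclei. Nuclear RNA includes unspliced transcripts, which long genes can yield more of, and *Mylk* spans 257211 bases against 6440 for *Tagln*, so levels are compared between classes for 1 gene and not between genes. For 9 of the 10 genes the interstitial-like nuclei held the largest share of the UMIs, from 40.6% for *Des* to 70.0% for *Myh11*. This class is also the largest, with 45.4% of the nuclei and 23886184 of the 76670523 UMIs of all genes, so these shares are not read as levels. *Synpo2* stood apart, with 7.25% of its 897 UMIs in interstitial-like nuclei, 37.9% in Sertoli-like and 25.6% in surface epithelium-like nuclei. Summed over the 10 genes, the level was 515 CPM in pericyte-like, 445 in surface epithelium-like, 399.6 in interstitial-like and 372 in mesonephric mesenchyme-like nuclei. *Mylk* and *Myocd* hold most of these UMIs, and the sum of the other 8 genes, taken after seeing the data, was 210.4 CPM in pericyte-like (177 to 248), 122 in interstitial-like (118 to 127), 102 in mesonephric mesenchyme-like (90.8 to 114) and 98.5 in surface epithelium-like nuclei (90.4 to 107), so the order of the surface epithelium-like and interstitial-like nuclei turned. The remaining classes ran from 234 CPM in endothelial-like through 131 in Sertoli-like and 94.7 in Leydig-like to 73.0 in germ-like and 39.2 in erythroid-like nuclei. These lower levels moved with the doublet threshold, since in nuclei under the automatic one they were 131 CPM in endothelial-like, 65.8 in Sertoli-like, 43.8 in immune-like and 34.1 in germ-like nuclei, while the interstitial-like level was 407 CPM.

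Among the 11 classes, with the interstitial-like class taken as a whole, the smooth muscle actins were led by the pericyte-like class. *Acta2*, smooth muscle alpha actin (chr19:34241090-34255590, minus strand, GRCm38), reached 78.0 CPM there, 1.79 times the next class (1.33 to 2.37). That next class was interstitial-like at 43.5 CPM, which did not differ beyond its interval from mesonephric mesenchyme-like at 40.3 CPM (1.08 times, 0.89 to 1.31). Endothelial-like nuclei at 24.5 and surface epithelium-like nuclei at 22.2 CPM came after them, Leydig-like nuclei had 13.6, Sertoli-like 10.7 and germ-like 6.32 CPM. *Actg2*, the gamma actin best known from gut and bladder muscle (chr6:83512905-83536265, minus strand), was rare, with 88 UMIs in 50 nuclei. Its level was 7.36 CPM in pericyte-like, 3.73 in mesonephric mesenchyme-like, 2.81 in endothelial-like and 2.30 in interstitial-like nuclei, 4 levels whose neighbours did not differ beyond their intervals, and then 0.477 CPM or less elsewhere. No *Actg2* UMI was seen in germ-like nuclei, which allows a level of up to 0.188 CPM.

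**Figure D1:**
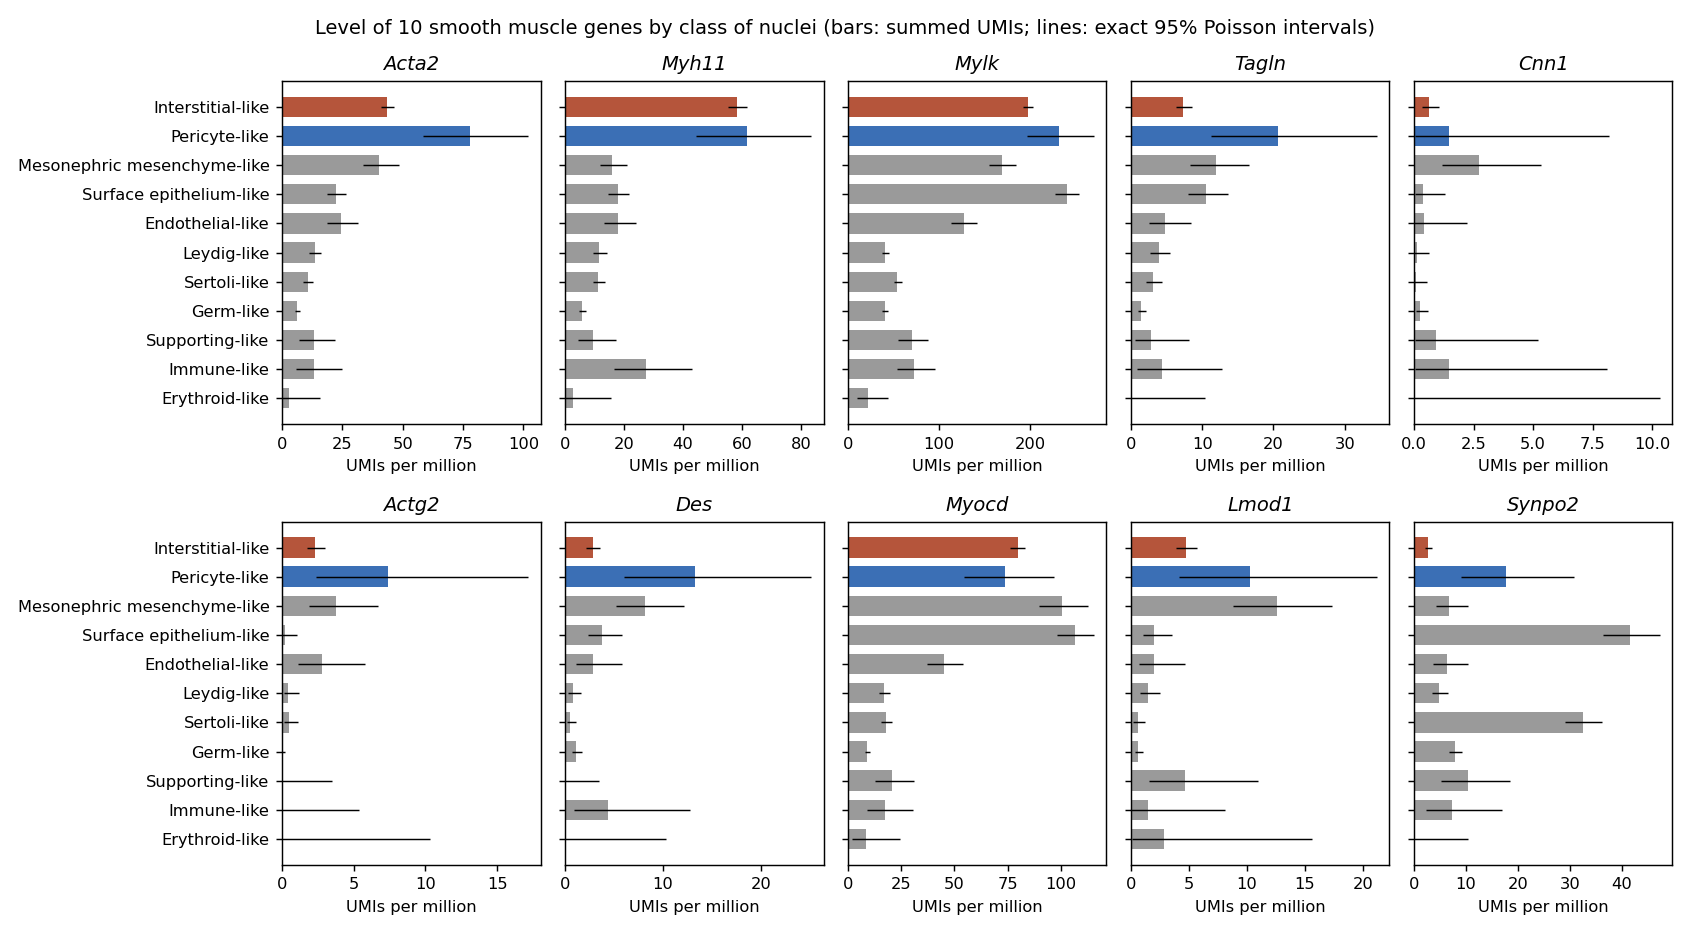
Level of each of the 10 genes in 11 classes of nuclei, in CPM (x axes, each from 0), as bars of summed UMIs with exact 95% Poisson intervals. *Acta2*, *Tagln*, *Actg2* and *Des* have their longest bar in pericyte-like nuclei (blue), *Myh11* has its 2 longest bars in pericyte-like and interstitial-like (red) nuclei, and *Synpo2* is highest in surface epithelium-like and Sertoli-like nuclei.

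The motor gene stood alike in pericyte-like and interstitial-like nuclei, and its kinase was spread over more classes. *Myh11*, the smooth muscle myosin heavy chain (chr16:14194535-14291372, minus strand), stood at 61.8 CPM in pericyte-like and 58.5 CPM in interstitial-like nuclei, a ratio of 1.06 (0.76 to 1.44). The interstitial-like level was 2.12 times the next one (1.35 to 3.53), 27.6 CPM in the 68 immune-like nuclei, of which 26 lay over the automatic doublet threshold and 4 held 83.0% of the UMIs of the genes other than *Mylk*, and 3.67 times that of mesonephric mesenchyme-like nuclei (15.9 CPM). For *Acta2* the same 2 classes had stood at 43.5 and 40.3 CPM. *Mylk*, the light chain kinase (chr16:34745210-35002420, plus strand), was spread more widely, at 240.1 CPM in surface epithelium-like, 231 in pericyte-like and 197 in interstitial-like nuclei, whose neighbours in this order did not differ beyond their intervals. Mesonephric mesenchyme-like nuclei followed at 169 and endothelial-like at 127 CPM, and *Mylk* was still at 41.0 CPM in Leydig-like and 40.5 CPM in germ-like nuclei.

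The actin-binding genes *Tagln*, *Lmod1* and *Cnn1* had 397, 211 and 36 UMIs over all kept nuclei. *Tagln*, transgelin (chr9:45929619-45936058, minus strand), ran from 20.6 CPM in pericyte-like through 11.9 in mesonephric mesenchyme-like and 10.5 in surface epithelium-like to 7.37 CPM in interstitial-like nuclei. *Lmod1*, leiomodin 1, which starts new actin filaments (chr1:135324807-135368065, plus strand), was at 12.5 CPM in mesonephric mesenchyme-like, 10.3 in pericyte-like and 4.73 in interstitial-like nuclei, and the ratio of the first to the third was 2.65 (1.78 to 3.87). *Cnn1*, calponin 1 (chr9:22099216-22109630, plus strand), had 15 UMIs in interstitial-like, 8 in mesonephric mesenchyme-like and 1 in pericyte-like nuclei, too few to order the classes.

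*Des*, the muscle intermediate filament (chr1:75360329-75368579, plus strand), stood at 13.2 CPM in pericyte-like and 8.13 CPM in mesonephric mesenchyme-like nuclei against 2.80 CPM in interstitial-like nuclei. *Synpo2*, an actin-bundling protein of muscle (chr3:123076519-123236149, minus strand), was at 41.6 CPM in surface epithelium-like nuclei, 15.3 times its interstitial-like level of 2.72 CPM (11.6 to 20.4). Sertoli-like nuclei followed at 32.4 CPM and pericyte-like nuclei at 17.7 CPM. *Myocd*, myocardin (chr11:65176561-65269989, minus strand), stood above its interstitial-like level in 2 classes, at 107 CPM in surface epithelium-like and 101 CPM in mesonephric mesenchyme-like nuclei against 79.7 CPM in interstitial-like and 73.6 CPM in pericyte-like nuclei. The last of these turned with the classes, since the pericyte-like over interstitial-like ratio of *Myocd* was 0.923 (0.683 to 1.22) here and 1.57 (1.15 to 2.10) with classes made from RNA alone. The surface epithelium-like nuclei thus had *Myocd* and *Mylk* at interstitial-like levels or above but *Myh11* at 0.306 (0.247 to 0.375) of the interstitial-like level. *Actg2*, with 1 UMI there, was at 0.0785 of that level, but at 0.814 (0.369 to 1.61) with classes made from RNA alone, so no difference is read from it.

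Pericyte-like nuclei were compared with interstitial-like nuclei, calling a gene at a ratio of at least 2 with a pseudocount of 1 CPM and at least 20 UMIs in both classes together. Summed over the 10 genes the ratio was 1.29 (1.15 to 1.43). Called higher were 4 of the 9 genes that could be tested, *Tagln* at 2.80 times (1.497 to 4.82), *Actg2* at 3.19 (0.998 to 7.92), *Des* at 4.72 (2.07 to 9.51) and *Synpo2* at 6.49 (3.19 to 12.1), where 7.29% of all 14974 tested genes were higher. None was called lower, where 12.6% of all genes were. *Lmod1*, at 2.18 times, missed the call under the pseudocount and its interval included 1 (0.86 to 4.63). With classes made from RNA alone, where 44 nuclei were pericyte-like, *Lmod1* was at 3.95 times (1.55 to 8.40) and the summed level at 1.67 times (1.47 to 1.90). The pericyte-like class had 5 UMIs of *Actg2*, 9 of *Des*, 12 of *Synpo2* and 14 of *Tagln*, so these ratios rest on few molecules. The median log2 ratio of the 9 genes was 0.98 against -0.02 over all tested genes. Among 34 tested genes of the other contractile list, 5 were higher and 4 lower. *Prkg1*, the cGMP-dependent kinase that relaxes smooth muscle, was at 45.4 times, *Ldb3* at 5.55 on 3 UMIs, *Cacna1c*, a calcium channel of muscle, at 2.71 and *Nexn* at 2.42 times. *Pdlim3* at 0.116 and *Synm*, an intermediate filament gene, at 0.117 were the lowest. Of 13 tested regulators, *Tbx18* (3.19, on 3 UMIs), *Heyl* (3.12) and *Notch3* (3.02), of which the last 2 belong to Notch signalling in mural cells, were higher and *Hic1* was lower. Of 6 tested striated muscle genes, none was higher and 3 were lower.

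Interstitial-like nuclei were then set against Leydig-like nuclei, the androgen-making cells of the same compartment. The summed level was 4.22 times higher (3.93 to 4.53). Of 9 tested genes, 7 were called higher, *Actg2* at 5.14 times, *Myh11* at 5.02, *Mylk* at 4.81, *Myocd* at 4.71, *Des* at 3.57, *Lmod1* at 3.25 and *Acta2* at 3.20, where 11.4% of 15854 genes were higher. *Tagln* at 1.88 times (1.30 to 2.78) and *Synpo2* at 0.565 (0.378 to 0.850) did not pass in either direction, in which 10.2% of all genes were lower. The size of this ratio moved with the doublet filter. Leydig-like nuclei under the automatic doublet threshold (636 of 800) had 35.8 in place of 94.7 CPM of the 10 genes, while their interstitial markers fell from 779 to 467 CPM, and with clusters made anew at that threshold the ratio was 12.1 (10.4 to 13.98). In the other contractile list 16 of 34 tested genes were higher and 4 lower, led by *Smtn* (smoothelin, 5.94 times), *Pdlim3* (5.92), *Pgm5* (5.61) and *Mrvi1* (108 against 21.6 CPM), and with the calcium and potassium channels *Ryr2* (0.331) and *Kcnma1* (0.295) on the low side. Of 13 tested regulators 5 were higher, led by *Heyl* at 7.07 and *Tead3* at 4.33 times, and *Gata6* was lower at 0.208. Of 6 tested striated muscle genes 1 was higher and 2 were lower.

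Shares of nuclei with a UMI were read beside those in germ-like nuclei, and the part of free RNA or doublets in them was not tested. After thinning every nucleus to 2000 UMIs, *Acta2* was found in 6.78% of interstitial-like and 0.519% of germ-like nuclei, and *Myh11* in 8.87% and 0.623%. *Myocd* was found in 8.96% and 0.519%, and *Mylk* in 28.5% and 5.09%. Of 66 pericyte-like nuclei, 5 had *Acta2* and 6 had *Myh11* after thinning. The lead of that class in *Acta2* CPM was thus not matched by a clear lead in the share of nuclei. Before thinning, with medians of 6356 and 15462 UMIs, a *Des* UMI was seen in 1.99% of interstitial-like and 2.07% of germ-like nuclei, and a *Synpo2* UMI in 1.68% and 9.33%. These unthinned shares stand at unequal depth and give no order of the classes. Per UMI, *Des* was at 2.80 CPM in interstitial-like and 1.12 CPM in germ-like nuclei, 2.50 times (1.52 to 4.25), whereas *Synpo2* was lower in interstitial-like nuclei, at 2.72 against 7.90 CPM. After thinning, *Des* was in 0.498% of interstitial-like (0.285 to 0.807) and 0.104% of germ-like nuclei (0.003 to 0.577), whose intervals overlap.

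Within the interstitial-like class the genes were uneven. At a clustering resolution of 0.6 the class fell into cluster 0 (1452 nuclei, led by genes that include *Prlr*, *Tox*, *Adam12* and *8030451A03Rik*), cluster 1 (1055 nuclei, led by *Caln1*, *Cpne8*, *Col4a4*, *Sorbs2* and *2010009K17Rik*) and cluster 2 (761 nuclei, led by the cell division genes *Depdc1b*, *Kif14*, *Depdc1a*, *Cdc25c* and *Kif23*). The 10 genes summed to 214 CPM in cluster 0, 717 in cluster 1 and 366 in cluster 2. Cluster 1 was picked for this level, so what follows on its RNA is a description. It stood 2.54 times above the other interstitial-like nuclei (2.44 to 2.64), a ratio that was 4.12 with stricter minimums and 1.60 with classes from ATAC alone. Of its genes, 7 of 9 tested genes were at least 2 times higher, from *Mylk* at 2.09 to *Lmod1* at 3.94 times, where 1.39% of all 14879 genes were higher and 3.6% lower. *Myocd* was at 173 against 45.3 CPM. *Des*, at 2.48 against 2.92 CPM, and *Synpo2*, at 4.03 against 2.24 CPM, were not among the 7. Of the other contractile genes 2 of 33 tested were higher, *Kcnma1* (2.82) and *Nexn* (2.29), and of 13 regulators *Gata6* was higher (2.24) and *Heyl* lower (0.469). Mesonephric mesenchyme markers summed to 121 against 85.3 CPM, with 1 of 3 higher. Surface epithelium markers summed to 108 against 95.5 CPM, with 1 of 5 tested higher and 1 lower.

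A finer division, at resolution 0.9, put the genes into a smaller set of nuclei. Of its 5 interstitial-like clusters, the one with the highest summed level held 391 nuclei, 11.96% of the class, of which 217 came from cluster 1 and 174 from cluster 2. The 10 genes summed to 1239 CPM in it and to 262 CPM in the other 2878 interstitial-like nuclei, a ratio of 4.72 (4.54 to 4.92), and the other 4 clusters ran from 179 to 436 CPM. This cluster too was picked by its level, and its values are a description.

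Both actins were concentrated there. *Acta2* was at 169 CPM against 22.9 CPM in the other interstitial-like nuclei, and *Actg2* at 13.4 against 0.487 CPM, that is 45 of the 55 interstitial-like UMIs of *Actg2*. *Myh11* was at 168 against 40.5 CPM, with the cluster nearest to it (871 nuclei) at 72.9 CPM. *Mylk* was at 457 against 155 CPM, the smallest of the ratios over 2 (2.95). *Lmod1* stood at 27.4 against 1.02 CPM, *Tagln* at 33.0 against 3.17 CPM, and *Cnn1* at 12 of its 15 interstitial-like UMIs. *Myocd* reached 358 against 34.1 CPM, and was found in 61.1% of these nuclei before thinning. In all, 7 of 9 tested genes were at least 2 times higher, where 3.46% of all tested genes were higher and 4.84% lower. *Des* was at 4.17 CPM (1.61 times, 0.83 to 2.95) and *Synpo2* at 4.76 CPM (1.995 times). The pericyte-like class lay below this cluster in *Acta2* (78.0 CPM), *Actg2* (7.36), *Myh11* (61.8), *Mylk* (231), *Tagln* (20.6), *Lmod1* (10.3), *Cnn1* (1.47) and *Myocd* (73.6). That class lay above the cluster in *Des* (13.2 CPM) and *Synpo2* (17.7 CPM). The pericyte-like values of *Cnn1*, *Actg2*, *Tagln*, *Lmod1*, *Des* and *Synpo2* rest on few UMIs, and no order is read for *Cnn1* and *Actg2*. The cluster was picked by its level, whereas the pericyte-like class was not split.

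**Figure D2:**
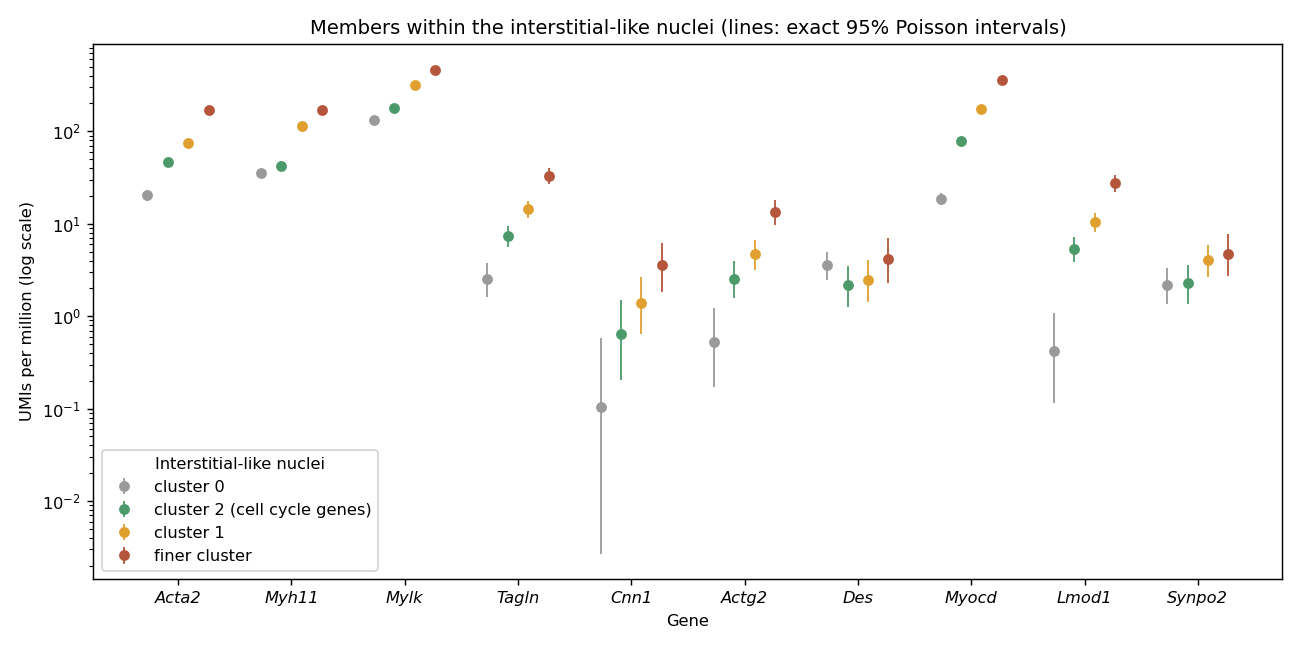
Level of each gene (y axis, CPM, log scale, with exact 95% Poisson intervals) in interstitial-like clusters 0, 2 and 1 and in the finer cluster of 391 nuclei, which takes its nuclei from clusters 1 and 2. *Acta2*, *Tagln*, *Actg2*, *Myocd* and *Lmod1* climb from cluster 0 to the finer cluster, whereas the points of *Des* and *Synpo2* stay between 2.16 and 4.76 CPM.

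The cluster of 391 nuclei was led by *Caln1*, *Ak5*, *Nxph1*, *Sema3d* and *Cdh3*, at 13.1 to 20.02 times the other interstitial-like nuclei. Among 33 tested genes of the other contractile list 12 were higher and 2 lower, with *Nexn*, an actin-binding gene of muscle, at 6.79, *Prkg1* at 4.36, *Cnn2* at 3.74 and *Csrp1* at 3.60 times, and *Ppp1r14a* (0.223) and *Synm* (0.401) on the low side. Of 13 tested regulators *Gata6* (3.64) and *Tead1* (2.01) were higher, and *Notch3* (0.493), *Heyl* (0.291) and *Tbx18*, with 0 UMIs in the cluster, were lower. Of 6 tested striated muscle genes *Actn2* was higher (3.998) and *Myh7* lower, with 0 UMIs in the cluster. Markers of another class moved with the members here, since 3 of 3 mesonephric mesenchyme markers were at least 2 times higher, *Rxfp2* at 7.94, *Itga8* at 4.29 and *Ntrk3* at 2.54 times. They summed to 263 CPM against 67.4 CPM in the other interstitial-like nuclei, and to 1876 CPM in the mesonephric mesenchyme-like class itself. Interstitial markers summed to 1938 against 2629 CPM, and pericyte markers to 47.0 against 66.8 CPM, with none of the latter higher. Surface epithelium markers summed to 228 against 77.7 CPM, with 1 of 5 tested higher (*Pdgfc*), and 8.18% of the nuclei lay over the automatic doublet threshold against 8.26% of the whole class. The part of these markers in the members' level was not tested.

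The UMIs of 9 genes, leaving out the widespread *Mylk*, were counted per nucleus. In the interstitial-like class 59.8% of nuclei had none, and the top 5% (164 nuclei) held 48.7% of the UMIs. The top 5% held 65.1% in Leydig-like, 53.8% in Sertoli-like and 65.7% in germ-like nuclei. They held 37.9% in surface epithelium-like and 36.8% in mesonephric mesenchyme-like nuclei, so such a share was not particular to the interstitial-like class. At least 10 such UMIs were found in 127 interstitial-like nuclei, 108 of them in the cluster of 391. Of these 127 nuclei 95.3% had a *Myocd* UMI, 86.6% *Myh11*, 81.9% *Acta2*, 40.2% *Tagln* and 33.9% *Lmod1*, but 3.15% *Des*. The first 3 of these genes supplied the largest counts and so shaped which nuclei reached 10.

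**Figure D3:**
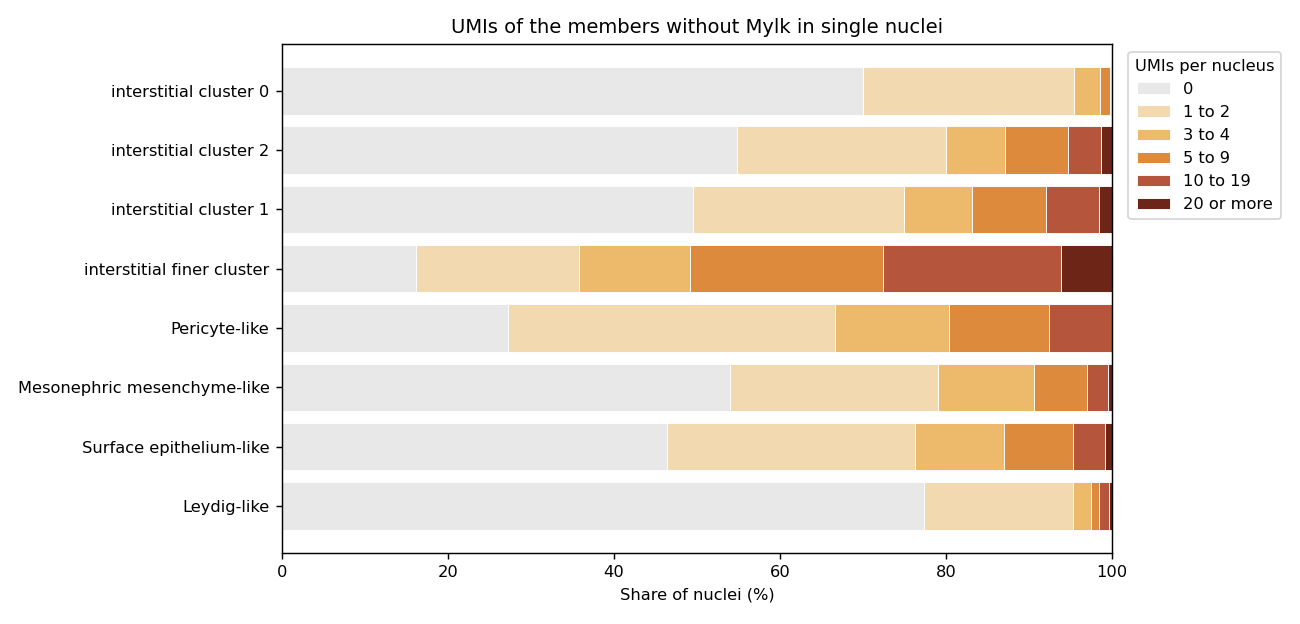
Share of nuclei (x axis, %) by the summed UMIs of the 9 genes other than *Mylk*, for 8 groups of nuclei, not thinned to equal depth. In the finer cluster 16.1% of nuclei had no UMI and 27.6% had 10 or more, against 70.0% and 0.207% in cluster 0 and 27.3% and 7.58% in pericyte-like nuclei.

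Co-detection was measured after thinning to 2000 UMIs, against the share expected if each gene were detected independently at its own rate in the class. Of 3214 interstitial-like nuclei, 114 (3.55%, 2.93 to 4.25) had 3 or more of the genes, where 0.861% were expected, a ratio of 4.12 (3.41 to 4.93). The size of this ratio depended on the thinning depth, at 8.38 with 1000 UMIs and 2.25 with 4000 UMIs. At least 1 gene was found in 40.6% where 46.7% were expected, and at least 4 in 36 nuclei. Of the 9 gene pairs with at least 5 expected nuclei, 8 were met more often than expected with an interval above 1, as were 4 of 56 pairs of a member with a class marker gene. Another 5 of these 56 had an interval below 1. Within the clusters of the class, member pairs with an interval above 1 were 0 of 3 in cluster 0, 5 of 8 in cluster 1 and 4 of 4 in cluster 2. They were 0 of 2 in mesonephric mesenchyme-like and 1 of 4 in surface epithelium-like nuclei. *Acta2* with *Myocd* came to 3.58 times (70 nuclei), *Myh11* with *Myocd* to 2.94 times (75 nuclei), and *Acta2* with *Myh11* to 2.90 times (56 nuclei). *Mylk* with *Synpo2*, at 1.11 times (0.41 to 2.41), was the pair whose interval included 1. No nucleus had *Synpo2* together with *Acta2* or *Myh11*, where 1.29 and 1.68 nuclei were expected.

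The excess differed with the split of the class. In the cluster of 391 nuclei 83 of 388 (21.4%) had 3 or more genes where 18.998% were expected, a ratio of 1.13 (0.917 to 1.36), and 34 had 4 or more, 2.40 times the expected share (1.68 to 3.29). In the other interstitial-like nuclei 31 of 2826 (1.10%) had 3 or more, 3.96 times the expected share (2.70 to 5.61). By the coarser clusters the counts were 7 of 1439 nuclei in cluster 0, 78 of 1014 in cluster 1 and 29 of 760 in cluster 2. Outside the class, 4 of 66 pericyte-like nuclei, 13 of 394 mesonephric mesenchyme-like (3.30%) and 14 of 555 surface epithelium-like nuclei (2.52%) had 3 or more. The last 2 were 2.65 and 2.50 times the expected shares, with intervals above 1. Of 797 Leydig-like nuclei 0 did, which allows a share of up to 0.462% where independence gave 0.0109%, and 2 of 842 Sertoli-like and 1 of 963 germ-like nuclei did. That germ-like nucleus stood against an expected share of 0.00134%, a ratio of 77.6 (1.96 to 431). With 2 or more genes, classes of low level also lay above expectation, at 2.59 times in Leydig-like (1.24 to 4.74), 2.07 in Sertoli-like (1.32 to 3.09) and 4.90 in germ-like nuclei (1.97 to 10.05), so the excess was not particular to the interstitial-like class.

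**Figure D4:**
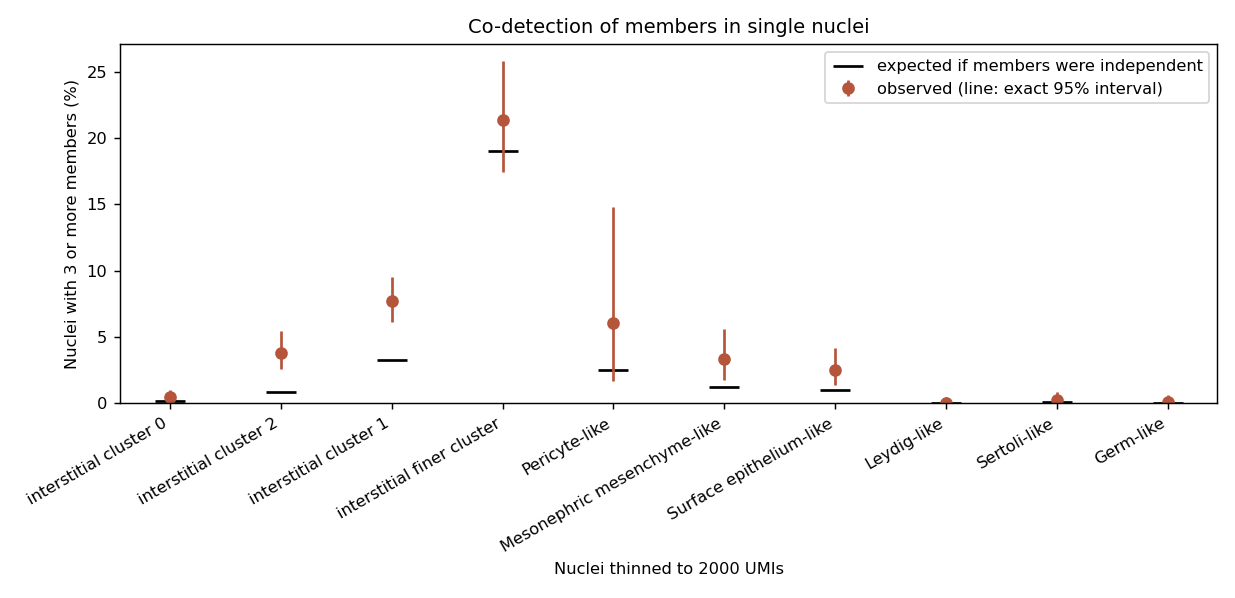
Share of nuclei with 3 or more of the 10 genes after thinning to 2000 UMIs (y axis, %), as points with exact 95% intervals, beside the share expected under independence (black bars), for 10 groups of nuclei. The finer cluster stands at 21.4% with an expected share inside its interval, cluster 1 at 7.69% and cluster 2 at 3.82% lie above theirs, and Leydig-like nuclei are at 0.

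Chromatin was read at promoters, as unique fragments with an end in a peak within 1 kb of a start in the deposited feature table, given as FPM (fragments per 1000000 fragments at peaks). For these comparisons the classes were made from RNA alone, so that chromatin had no part in them. A promoter peak was found for 9 genes, with 1 to 3 peaks each, and none for *Actg2*. Interstitial-like nuclei had 195 promoter fragments of *Acta2*, 173 of *Myh11*, 160 of *Tagln*, 145 of *Des* and 106 of *Synpo2*, and 55 to 67 for the other 4 genes. The summed promoters came to 149.8 FPM against 124 FPM in the Leydig-like class, 1.21 times (1.02 to 1.45), where RNA of the same nuclei differed 4.12 times. The interval of this promoter ratio included 1 without doublet removal (0.989 to 1.36), with stricter minimums (0.937 to 1.36) and with the contractile genes kept among the features (0.905 to 1.31). Here and in the comparisons below, the promoter and RNA sums weigh the genes differently. *Mylk* and *Myocd* hold most of the RNA UMIs but gave 67 and 56 of the 1016 interstitial-like promoter fragments. *Synpo2* gave 44 of the 151 Leydig-like promoter fragments. The part of this weighting in the gap between the RNA and promoter ratios was not tested. At least 1.5 times higher were 2 of 9 promoters, *Acta2* at 2.34 (1.38 to 4.26) and *Myh11* at 1.95 (1.16 to 3.48), where 9.18% of 17898 promoters were higher, and *Des* (1.53) and *Lmod1* (1.52) fell short of the call with its pseudocount of 0.5 fragments. The *Myocd* promoter was at 1.008 times (0.51 to 2.22) where its RNA was at 4.76 times. The *Synpo2* promoters went the other way, at 0.434 (0.302 to 0.631), with RNA at 0.610. Pericyte-like nuclei had 24 promoter fragments over the 9 genes, 1.99 times the interstitial-like level (1.27 to 2.98) and too few to describe gene by gene. The summed promoters stood at 182 FPM in mesonephric mesenchyme-like, 173 in surface epithelium-like, 139 in Sertoli-like and 93.1 in germ-like nuclei. The interstitial-like level was 1.08 times the Sertoli-like one (0.945 to 1.23), where RNA differed 2.82 times. This sum mixes genes of opposite direction, since *Mylk* gave 72 of the 299 Sertoli-like fragments and was at 0.295 times (0.208 to 0.417). *Acta2* (1.93, 1.32 to 2.90), *Myh11* (1.71, 1.17 to 2.58) and *Lmod1* (2.08, 1.02 to 4.76) were higher in interstitial-like nuclei, and the intervals of the other genes included 1.

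Inside the interstitial-like class, the RNA cluster with the highest summed level at resolution 0.6 (1095 nuclei) stood 1.21 times above the other nuclei in summed promoter fragments (1.06 to 1.38) and 2.47 times in RNA, and 1 of 9 promoters passed, *Cnn1* at 1.73 times with an interval that included 1 (0.968 to 3.05), where 4.64% of 17531 did. At resolution 0.9 the highest RNA cluster held 366 nuclei, 349 of them in the joint cluster of 391. Its summed promoters stood 1.79 times above the rest (1.52 to 2.09) and its RNA 4.79 times. The cluster was picked by RNA, and the promoter fragments had no part in that choice. At least 1.5 times higher were 5 of 9 promoters, where 8.14% of all promoters were. *Lmod1* was at 21.02 against 7.03 FPM, 2.99 times (1.60 to 5.37), *Tagln* at 55.7 against 19.3, 2.89 times (2.001 to 4.11), and *Acta2* at 61.8 against 24.3, 2.55 times (1.81 to 3.54). *Cnn1* at 2.06 times (0.99 to 3.98) and *Mylk* at 1.61 times (0.79 to 3.05) passed the fold with intervals that included 1, on 12 fragments each in the cluster. *Myh11*, whose RNA was 4.28 times higher, had a promoter ratio of 1.02 (0.61 to 1.62), and *Myocd*, with RNA at 10.1 times, one of 0.724 (0.23 to 1.80) on 5 fragments. The *Myh11* value leaves out an upstream peak just beyond 1 kb, which was higher in this cluster and is given below. *Des* and *Synpo2* were at 1.11 and 1.41 times, with RNA at 1.43 and 1.55 times.

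**Figure D5:**
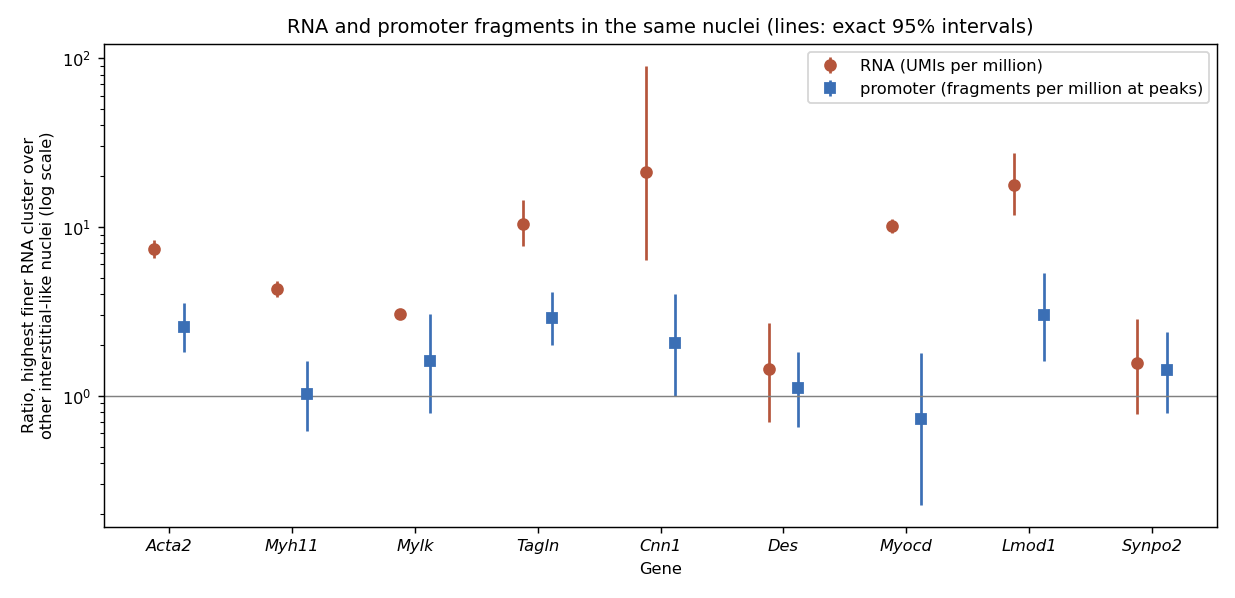
Ratio of the highest finer RNA cluster (366 nuclei) over the other interstitial-like nuclei (y axis, log scale) for RNA (circles) and for promoter fragments (squares) of 9 genes, with exact 95% intervals. The squares of *Acta2*, *Tagln* and *Lmod1* lie above 1 with their intervals, and those of *Myh11* and *Myocd* lie at 1.02 and 0.724 below circles at 4.28 and 10.1. The *Myh11* square leaves out a higher upstream peak just beyond 1 kb.

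Of 78 peaks in the gene bodies or up to 10 kb upstream of them, 62 could be tested, and 29 (46.8%) were at least 1.5 times higher in the cluster of 366 nuclei, where 20.3% of all 72778 tested peaks were. At least 1.5 times lower were 7 of the 62, 4 of them of *Mylk*, where 23.4% of all peaks were. In the cluster of 1095 nuclei 14 of 62 (22.6%) were higher, where 13.9% of all peaks were, and 6 were lower, where 14.7% were. By gene, 4 of 5 tested *Acta2* peaks, 2 of 2 of *Tagln*, 3 of 5 of *Lmod1*, 7 of 10 of *Synpo2*, 7 of 20 of *Mylk*, 2 of 7 of *Myocd*, 1 of 7 of *Myh11* and 1 of 2 each of *Cnn1*, *Actg2* and *Des* were higher in the finer cluster. The *Acta2* peak over its start (chr19:34255013-34255882) was at 2.49 times (1.65 to 3.66), and the peak upstream of the gene at chr19:34265405-34266310 at 4.55 times (1.63 to 11.8). The *Myh11* peak that passed lies upstream of its start, just beyond 1 kb (chr16:14292459-14293331), at 1.94 times (1.12 to 3.22). It was therefore not counted in the *Myh11* promoter ratio. The *Mylk* starts in the feature table lie inside the gene, and Sertoli-like nuclei had 72 promoter fragments there, 33.5 against 9.88 FPM in interstitial-like nuclei, where the RNA ratio ran the other way. Most of this came from 1 peak (chr16:34992989-34993868), at 20.02 against 2.06 FPM. The peak at the annotated start of the whole *Mylk* gene (chr16:34744801-34745693) is not among these starts, and was at 1.07 times in the cluster of 366 nuclei (0.68 to 1.62). An inner *Synpo2* start had a peak (chr3:123115729-123116491) at 17.2 FPM in Leydig-like and 2.51 in interstitial-like nuclei.

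RefSeq promoter sequences (GRCm38.p6) were at hand for *Acta2*, *Cnn1*, *Des*, *Lmod1*, *Mylk* and *Synpo2*. The CArG box, the motif that serum response factor and myocardin use, was searched on both strands in the 250 bases before each start. The exact motif was in 1.47% of 32851 promoters and in none of these 6, and with at most 1 base other than A or T in its core it was in 8.59% of promoters and, of the 6, in that of *Acta2*, where it occurred 2 times. Both stretches are shown because they lie under the peak over the *Acta2* start, which was 2.49 times higher in the cluster of 366 nuclei. They read on the minus strand, 94 to 65 bases (chr19:34255438-34255467) and 44 to 15 bases (chr19:34255388-34255417) before the RefSeq start, with the motif in capitals, and lie in the first exon of a longer annotated transcript, since the start in the feature table is upstream, at 34255590. The second match overlaps a TGGGAA motif, which is in 21.6% of all promoters.
Acta2, 94 to 65 bases before the start: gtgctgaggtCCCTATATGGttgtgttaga
Acta2, 44 to 15 bases before the start: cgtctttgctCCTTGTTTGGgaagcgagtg

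CATTCC, the core that TEAD factors bind, was in 12.6% of promoters and in those of *Acta2*, *Lmod1* and *Mylk*. The *Mylk* window (chr16:34784700-34784949) lies before a RefSeq start inside the gene, whose annotated start is at 34745210. GGGCGG, the GC box of Sp factors, was in 32.7% and in those of *Des*, *Lmod1* and *Synpo2*. The *Lmod1* stretch is shown because its promoter had the largest ratio in the cluster of 366 nuclei (chr1:135324671-135324700, plus strand, reverse complement of CATTCC in capitals). *Cnn1* (chr9:22099083-22099213, plus strand), whose promoter also passed, and *Des* (chr1:75360122-75360252, plus strand), whose promoter did not, are set beside it over 170 to 40 bases before their starts, with any of the motifs in capitals. No motif stood in capitals for *Cnn1*, and *Des* had 2 GC boxes read on the opposite strand.
Lmod1: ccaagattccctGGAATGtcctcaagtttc
Cnn1: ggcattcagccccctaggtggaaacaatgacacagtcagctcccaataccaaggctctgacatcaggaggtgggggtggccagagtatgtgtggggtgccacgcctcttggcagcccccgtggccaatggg
Des: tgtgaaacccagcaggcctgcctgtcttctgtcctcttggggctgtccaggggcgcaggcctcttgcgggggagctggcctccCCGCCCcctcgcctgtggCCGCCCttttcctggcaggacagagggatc

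Over the 16 joint clusters of at least 50 nuclei at resolution 0.6, each gene's log2 level was set beside the summed level of the other 9. Pearson's r was 0.946 for *Myocd*, 0.931 for *Mylk*, 0.911 for *Tagln* and 0.898 for *Acta2*, then 0.813 for *Myh11*, 0.683 for *Actg2* and *Lmod1*, 0.654 for *Des*, 0.482 for *Cnn1* and -0.061 for *Synpo2*. *Mylk* and *Myocd* hold most of the summed UMIs and so weigh most in any summed level, and r between these 2 genes was 0.935. The clusters share 1 library and the interstitial-like clusters share many genes, so these values are descriptive. Among 6658 other genes with enough UMIs, those most like the summed level over the same clusters were *Ptn* (r = 0.955), *St3gal1* (0.943), *Fstl1* (0.942), *Kank4* (0.925) and *Fgf2* (0.924).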

How the data were processed

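The authors deposited raw counts from Cell Ranger ARC 2.0.1 on mm10, for each barcode the UMIs of genes and the transposase cuts in peaks, with no normalization, and a fragment list with counts of read pairs. Per the labels, each assay has 1 library. Barcodes passed those of the study's minimums that these files allow to be applied (over 500 genes, under 10% mitochondrial and ribosomal and 0.5% haemoglobin UMIs, over 20% of fragments at peaks, 250 to 25000 fragments at peaks). Scrublet (scanpy 1.11.5) ranked doublets and 470 were removed, where its automatic threshold marked 1519. The study's blacklist filter, its doublet caller and its removal of free RNA were not applied here.

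Clusters were made with Seurat 5.3.0 (R 4.3.3, irlba 2.3.5.1) by weighted nearest neighbours over 30 components of RNA (2000 variable genes) and of peaks, at resolutions of 0.3 for classes, 0.6 and 0.9. Each cluster took the class with the highest mean z score of its markers. The members, marker and gene lists were chosen with earlier results of these data known. Named were the members, up to 4 genes per direction of each list and the 5 leading genes of clusters and of likeness, of which 1 is not reported here. Promoter and peak calls used 1.5 times with a pseudocount of 0.5 fragments and at least 20 fragments, a fold chosen after the data were seen. The RNA calls at 2 times and their intervals were tested on simulated RNA counts with Poisson error only, without uneven UMIs between nuclei. The calls at 1.5 times on promoter and peak fragments were not simulated. Alternatives were other doublet filters, minimums, features, assays, scalings and thinning depths.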

Additional observations from a re-analysis of the deposited data

How the results depend on the processing

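The order of surface epithelium-like and interstitial-like nuclei in the summed level turned without *Mylk* and *Myocd*, from 445 against 399.6 CPM to 98.5 against 122 CPM. None of the other summed ratios given in this section turned its direction under the alternatives run. Ratios of single genes were not refitted under them, but several moved between joint and RNA-alone classes. Pericyte-like over interstitial-like, *Myocd* went from 0.923 to 1.57 (1.15 to 2.10) and *Mylk* from 1.17 to 1.45 (1.19 to 1.76), and *Actg2* in mesonephric mesenchyme-like over interstitial-like nuclei went from 3.73 against 2.30 CPM to a ratio of 0.517 (0.103 to 1.59). The pericyte-like over interstitial-like ratio of the summed level, 1.29, was 1.49 with Scrublet's automatic threshold and 1.82 with UMIs counted per nucleus, and 1.72 without *Mylk* and *Myocd*, an alternative chosen after seeing the data. No pericyte-like class was named under the stricter minimums or from ATAC alone, so no value is given there. The interstitial-like over Leydig-like ratio, 4.22, was 3.46 without doublet removal, 12.1 at the automatic threshold, 3.16 with stricter minimums (1000 genes and fragments), 2.88 with classes from ATAC alone, 5.20 with a marker gate, 15.0 after subtracting the germ-like level, 2.76 per nucleus and 3.33 without *Mylk* and *Myocd*. The observed over expected share with 3 or more genes, 4.12, was 8.38 when thinned to 1000 UMIs, 2.25 at 4000 UMIs and 1.22 for 2 or more genes. The promoter ratio, 1.21, was 1.52 at the automatic threshold, but 1.16 without doublet removal, 1.12 with stricter minimums and 1.08 with the contractile genes kept among the features, where its interval included 1. The ratio of the highest interstitial cluster, 2.54, was 2.81 without doublet removal, 2.86 at the automatic threshold, 4.12 with stricter minimums, where 367 in place of 207 genes were at least 2 times higher, 2.82 with the contractile genes kept among the features, 1.60 from ATAC alone, 3.07 after subtracting the germ-like level, 4.72 at resolution 0.9, where 515 genes were at least 2 times higher, and 2.66 without *Mylk* and *Myocd*. The cause of these changes was not tested. The counts of members called moved by less than 1.5 times. With 36 UMIs in all, *Cnn1* could not be ordered between classes at this depth, and the ratio of *Actg2* in pericyte-like nuclei rests on 5 UMIs with an interval that includes 1. No paired analysis was possible because each assay has 1 library.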
